A study of Homo sapiens with 11 samples.

Results

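Histone genes were followed on 11 expression arrays, made after transfection of MDA-MB-231 or SKOV3 cells with a mimic of miR-365a-3p or with control miRNA. The genes were taken by their symbols, as those that begin with HIST1H to HIST4H, H2AF, H3F3 or H1F. This gave 85 of 31325 rows of the deposited table, 1 row per gene symbol, of which 70 carry the HIST name of the replication-dependent histone clusters and 15 are variant histone genes. All 85 matched a current RefSeq symbol. MDA-MB-231 is a human triple-negative breast cancer line and SKOV3 a human ovarian cancer line with amplified ERBB2. The groups were MDA-MB-231 with miR-365a-3p (n = 3), MDA-MB-231 with control miRNA (n = 3), SKOV3 with miR-365a-3p (n = 3) and SKOV3 with control miRNA (n = 2). The labels place all arrays at 48 h after transfection, where the series description gives 24 h, and the paper names the ovarian line SKOV3.ip1, a derivative of SKOV3. No source states that the arrays of a group came from separate cultures, so p-values measure the spread between these samples, which may be technical. Against its markers, the ERBB2 row had a mean of 10.86 in SKOV3 control arrays and 7.61 in MDA-MB-231 control arrays, and the ESR1 row was near the floor in MDA-MB-231 with a mean of 7.28. Between the control arrays, 0 of 11 marker rows were called higher in MDA-MB-231 cells and 7 lower, where 7.76% and 8.34% of all rows were. VIM, CD44 and SPARC, listed as markers of MDA-MB-231, were thus not called higher there.

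Histones are the proteins around which DNA is wrapped. H2A, H2B, H3 and H4 form the core of the nucleosome, and H1 binds the linker DNA between cores. The replication-dependent genes lie in clusters, lack introns and are transcribed in S phase. Their mRNAs as a rule end in a stem-loop bound by SLBP instead of a poly(A) tail. Some of them, HIST1H1C, HIST1H2AC, HIST1H2BD, HIST1H2BK and HIST2H2BE included, are known to be made as polyadenylated mRNAs too. Variant genes such as H2AFZ, H3F3A and H1F0 stand alone, make polyadenylated mRNAs and are expressed outside S phase. The amplification kit named in the labels primes reverse transcription with oligo(dT), so what these arrays measure of a HIST gene depends on its polyadenylated transcripts. Fewer transcripts per cell and a smaller share of cells that make them cannot be told apart in such bulk samples.

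The mimic and the promoters of some HIST genes show what the comparisons are about. The miRNA has the mature sequence below, from RefSeq (GRCh38.p14), with its seed, bases 2 to 8, in capitals. It lies at chr16:14309340-14309361 on the plus strand. The 3p arm of miR-365b has the same sequence, so the name of the mimic does not tell the genes apart.
hsa-miR-365a-3p: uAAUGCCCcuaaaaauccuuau
The next lines give the 250 bases before the start of 5 HIST genes, from the RefSeq promoter table of the same build, 5′ to 3′ on the strand of the gene. Capitals mark exact matches to TATAAA (the TATA box, on the strand of the gene), CCAAT (the CCAAT box, either strand) and ATTTGCAT (the octamer, either strand). HIST1H2AC, HIST1H2BD, HIST1H1C and HIST1H2BK were the HIST1 rows with a mean above 8 that rose with the mimic in MDA-MB-231 cells. HIST2H2BE, near the floor with a mean of 7.46, was not called there. The windows lie at chr6:26123922-26124171 on the plus strand, chr6:26157871-26158120 on the plus strand, chr6:26056471-26056720 on the minus strand, chr6:27146859-27147108 on the minus strand and chr1:149886683-149886932 on the minus strand, in this order.
HIST1H2AC: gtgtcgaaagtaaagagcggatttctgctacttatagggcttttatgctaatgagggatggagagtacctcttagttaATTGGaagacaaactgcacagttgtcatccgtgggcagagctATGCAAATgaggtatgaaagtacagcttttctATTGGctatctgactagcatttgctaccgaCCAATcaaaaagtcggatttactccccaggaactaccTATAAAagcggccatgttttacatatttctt
HIST1H2BD: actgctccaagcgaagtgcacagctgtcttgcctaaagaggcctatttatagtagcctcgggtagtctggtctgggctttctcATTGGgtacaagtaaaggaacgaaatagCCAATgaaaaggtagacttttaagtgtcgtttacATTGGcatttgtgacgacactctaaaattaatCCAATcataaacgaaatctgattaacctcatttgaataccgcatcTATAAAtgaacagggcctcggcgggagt
HIST1H1C: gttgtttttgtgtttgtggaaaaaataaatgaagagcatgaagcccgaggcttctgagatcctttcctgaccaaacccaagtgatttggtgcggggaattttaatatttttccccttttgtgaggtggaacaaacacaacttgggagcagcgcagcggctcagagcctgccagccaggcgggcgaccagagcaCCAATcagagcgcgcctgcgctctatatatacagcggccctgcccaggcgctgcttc
HIST1H2BK: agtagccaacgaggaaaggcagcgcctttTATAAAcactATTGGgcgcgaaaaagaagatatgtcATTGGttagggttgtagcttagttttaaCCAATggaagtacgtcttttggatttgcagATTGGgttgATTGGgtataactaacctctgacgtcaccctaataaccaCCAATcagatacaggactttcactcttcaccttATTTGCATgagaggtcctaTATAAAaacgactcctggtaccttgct
HIST2H2BE: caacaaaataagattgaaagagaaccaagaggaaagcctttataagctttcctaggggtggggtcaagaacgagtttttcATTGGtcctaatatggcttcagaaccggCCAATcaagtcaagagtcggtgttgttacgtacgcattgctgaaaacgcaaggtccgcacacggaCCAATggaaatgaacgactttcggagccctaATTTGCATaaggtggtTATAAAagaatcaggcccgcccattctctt
The HIST1H2AC window holds all 3 motifs and also lies upstream of HIST1H2BC, whose start is 246 bases away on the other strand. The HIST1H1C window holds a CCAAT box but no match to TATAAA or the octamer. The window of HIST2H2BE holds all 3 motifs and is shared with HIST2H2AC, whose start is 236 bases away. Of 65 HIST genes with a window, 38 (58.5%) held the TATA box, 55 (84.6%) the CCAAT box and 26 (40%) the octamer, against 7.17%, 33.0% and 1.66% of 27305 promoter windows in all. Of 14 variant genes with a window, 4 held the TATA box, 11 the CCAAT box and 1 the octamer. A match is a description of the letters and not of a bound factor.

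The deposited values are on a log2-like scale with a floor near 7.2, and most rows lie close to it. Of the 85 histone rows, 15 had a mean over the 11 arrays above 8, namely 7 HIST and 8 variant rows. The other 63 HIST and 7 variant rows lay between the floor and 8, where a difference understates the change of a gene. The deposited columns did not share 1 distribution: the 75th percentile was 7.86 to 7.93 in MDA-MB-231 control arrays and 7.56 to 7.65 with the mimic, and 7.98 to 8.04 and 7.67 to 7.80 in SKOV3 cells. For this reason the values were quantile normalized again across the 11 arrays, and a difference below is given on that log2 scale, as the mean with the mimic less the control mean. Rows were called at a Benjamini-Hochberg adjusted p under 0.05 over all rows in limma. Values of different rows come from different probes and are not compared with each other.

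In MDA-MB-231 cells, part of the replication-dependent histone rows rose with miR-365a-3p and some variant rows fell. Of the 70 HIST rows, 24 were called higher and 0 lower, where 14.4% of all rows were called higher and 11.7% lower. At an unadjusted p under 0.05, 35 HIST rows differed in either direction, where 33.7% of all rows did. Of the 15 variant rows, 1 was called higher, H2AFJ, and 5 lower, H2AFY, H1F0, H3F3B, H1FX and H2AFX. The calls depend on the level, since among rows with a mean above 8 the shares over all rows were 39% higher and 26.2% lower. In that range 6 of 7 HIST rows rose, and 1 of 8 variant rows rose and 4 fell. At or below 8, 18 of 63 HIST rows rose, where 7.51% of all such rows did. The median difference was 0.07 over all HIST rows, -0.0063 over all variant rows and 0.0064 over all rows, and above 8 it was 1.11 for HIST rows, -0.30 for variant rows and 0.17 for all rows. The mean that sets this limit takes in the mimic arrays. HIST1H2AC, HIST1H2BD and HIST2H2AC passed 8 only through the MDA-MB-231 mimic arrays, since their means in the other groups lay below 8. The 6 of 7 rows and the median of 1.11 thus rest in part on the rise itself.

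**Figure D1:**
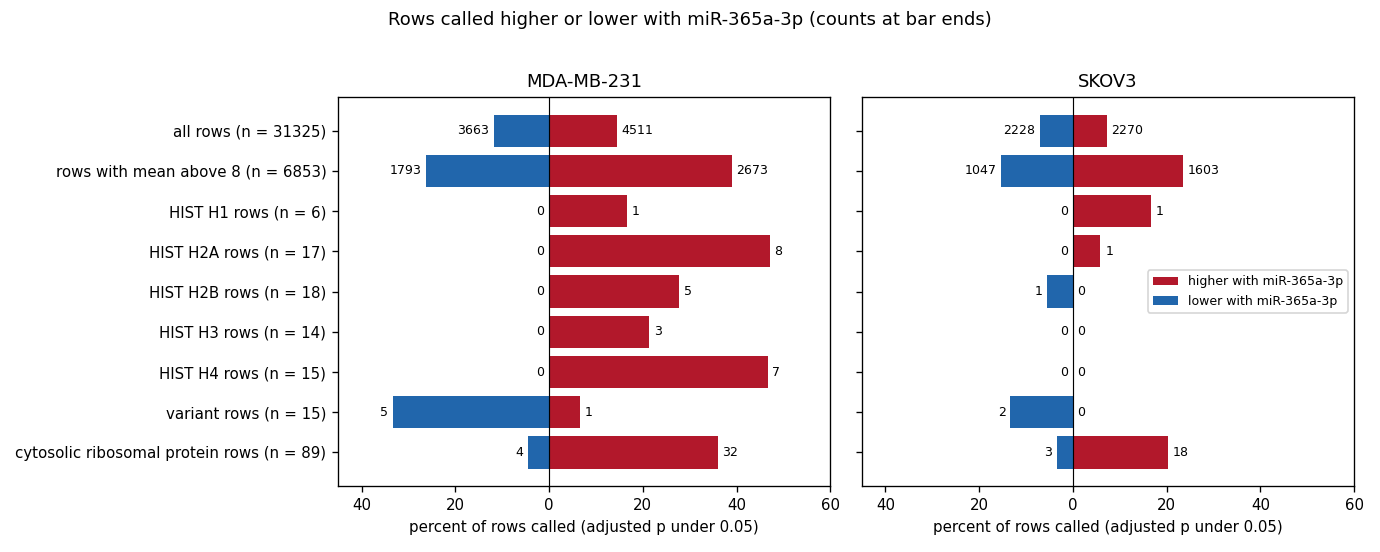
Percent of rows called higher (red, to the right) or lower (blue, to the left) with miR-365a-3p in each cell line at an adjusted p under 0.05, for all rows, rows with a mean above 8, HIST rows by histone type, variant rows and cytosolic ribosomal protein rows, with counts at the bar ends. In MDA-MB-231 cells HIST calls lie on the higher side in every type, and variant calls lie mostly on the lower side.

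HIST1H2AC, an H2A gene of the large cluster, had the largest difference of the histone rows. Its values were 7.89, 8.03 and 7.95 in MDA-MB-231 control arrays and 9.78, 9.78 and 9.75 with the mimic. All mimic arrays were far above all control arrays, a difference of 1.81 ± 0.06 (SE), or 3.52-fold (limma, adjusted p = 9.05e-07). HIST1H2BD, an H2B gene, was at 7.85, 7.94 and 7.78 in control arrays and at 9.64, 9.48 and 9.40 with the mimic. The groups did not overlap, and the difference was 1.65 ± 0.08 (SE), or 3.14-fold (adjusted p = 7.06e-06). HIST1H1C, which encodes the linker histone H1.2, went from 8.85, 9.10 and 8.79 to 10.17, 9.97 and 9.92, a difference of 1.11 ± 0.11 (SE) with no overlap (adjusted p = 0.000149). HIST1H2BK, a further H2B gene, went from 10.004, 10.28 and 9.99 to 10.75, 10.82 and 10.91. Here too all mimic arrays were higher, by 0.74 ± 0.08 (SE) on average (adjusted p = 0.000309).

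In the cluster on chromosome 1, HIST2H2AA4 was at 8.09, 8.26 and 8.07 in MDA-MB-231 control arrays and at 9.58, 9.31 and 9.33 with the mimic, a difference of 1.26 ± 0.10 (SE) without overlap (adjusted p = 4.38e-05). Its near-identical copy HIST2H2AA3 lay just below a mean of 8 and rose by 1.01 ± 0.11 (SE). Since the mRNAs of both encode the same H2A, a probe may not tell them apart, and the rows are not independent. The same holds for HIST2H4A and HIST2H4B, which rose by 0.51 and 0.57. HIST2H2AC went from 7.94, 7.81 and 7.69 to 9.14, 8.68 and 8.73, with all mimic arrays above all control arrays and a difference of 1.04 ± 0.13 (SE, adjusted p = 0.000575). HIST1H4C, an H4 gene, was the 1 HIST row above 8 that was not called. Its values were 12.57, 11.02 and 11.54 in control arrays and 12.52, 12.18 and 12.40 with the mimic, so that control replicate 1 lay above all mimic arrays. The difference was 0.66, with a 95% interval from -0.18 to 1.50 (adjusted p = 0.271). Without MDA-MB-231 control replicate 1 it was 1.09 and was called (adjusted p = 0.022).

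**Figure D2:**
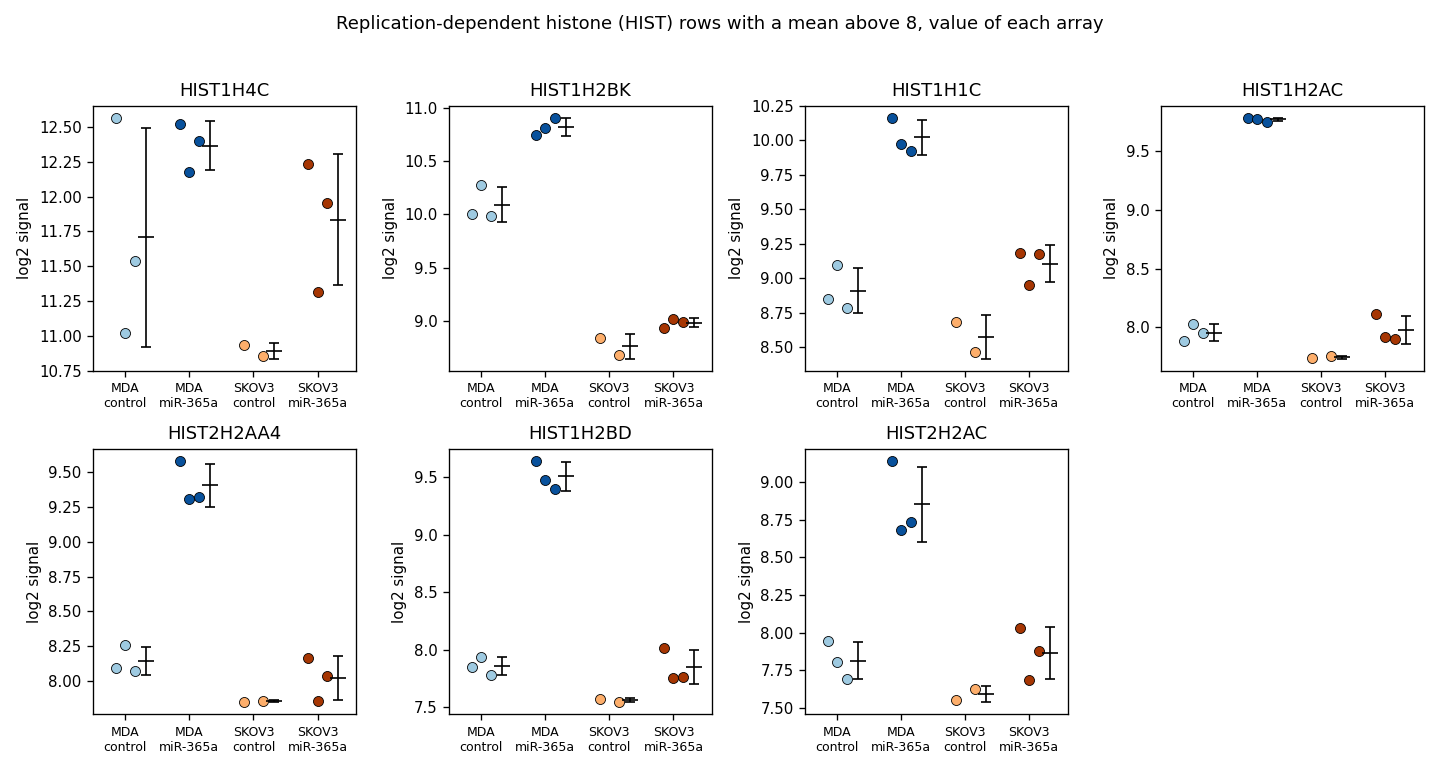
Quantile normalized log2 signal of the 7 HIST rows with a mean above 8, 1 point per array, with the mean and SD of each group beside it; each panel has its own axis. In 6 panels all 3 MDA-MB-231 mimic arrays lie above all 3 control arrays, and in HIST1H4C 1 control array lies with the mimic arrays.

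The 24 HIST rows that rose in MDA-MB-231 cells differed by 0.09 to 1.81, with a median of 0.47, and in each of them all mimic arrays were above all control arrays. This lack of overlap is found on the higher side in 34 of 70 HIST rows and in 21% of all rows. Of the 24, 11 differed by at least 0.5, where 7.28% of all rows were called higher by that much. By type, 8 of 17 H2A rows, 7 of 15 H4 rows, 5 of 18 H2B rows, 3 of 14 H3 rows and 1 of 6 H1 rows rose. By cluster, 17 of 55 HIST1 rows and 7 of 11 HIST2 rows rose, and 0 of 3 HIST3 rows and 0 of 1 HIST4 rows. Without probe sequences, signal shared between near-identical HIST genes could not be checked, so the rows behind these counts may not be independent. The H2A rows not yet named were HIST1H2AD (0.94), HIST2H2AB (0.38), HIST1H2AM (0.19) and HIST1H2AG (0.09). The H2B rows were HIST1H2BE (0.48), HIST1H2BC (0.37) and HIST1H2BJ (0.22). The H4 rows were HIST1H4H (0.62), HIST1H4K (0.45), HIST1H4E (0.35), HIST1H4J (0.30) and HIST1H4B (0.22), and the H3 rows HIST1H3C (0.38), HIST1H3B (0.16) and HIST2H3A (0.16). All of these lay near the floor, and the values in parentheses are log2 differences.

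**Figure D3:**
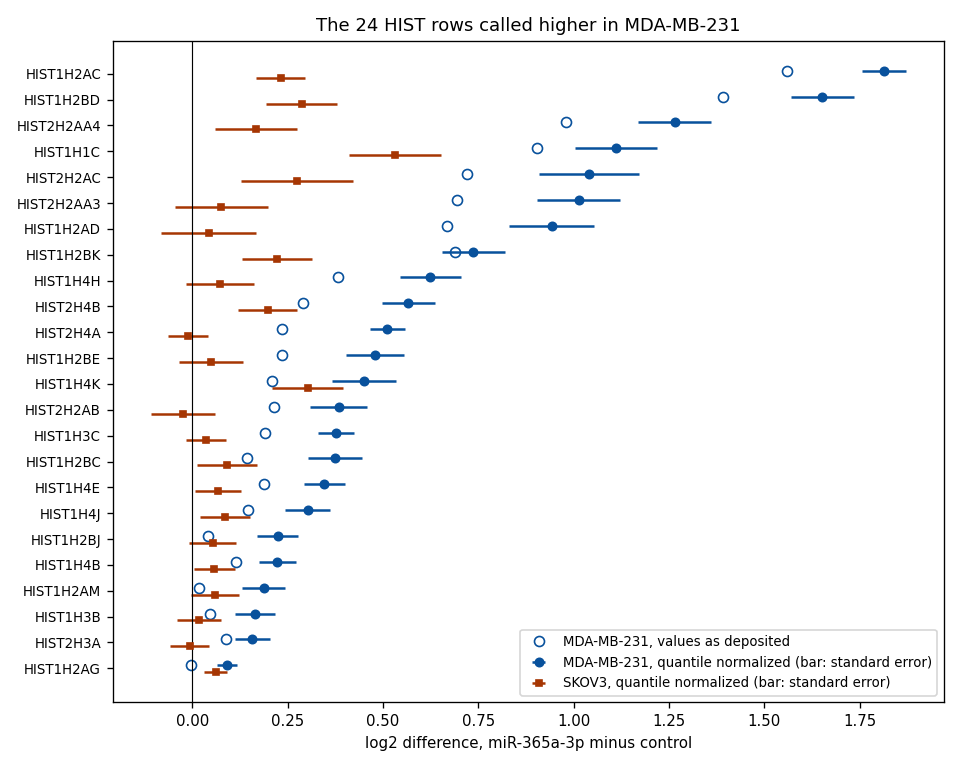
Log2 difference, miR-365a-3p minus control, of the 24 HIST rows called higher in MDA-MB-231 cells (filled circles, with the standard error), the same on the deposited values (open circles) and in SKOV3 cells (squares, with the standard error). The MDA-MB-231 difference is the larger in 24 of 24 rows, which their choice by that difference favours. Without this choice it is the larger in 52 of 70 HIST rows, and in 16259 of all 31325 rows. The deposited values give a smaller difference than the normalized ones in each of the 24 rows.

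Genes that lie head to head were not always called together. Among the HIST members, 12 pairs start on opposite strands within 1000 bases of each other. In 2 pairs both members were called higher in MDA-MB-231 cells, HIST1H2AC with HIST1H2BC and HIST1H2AG with HIST1H2BJ. In 2 pairs only 1 member was called, HIST2H2AC (1.04) but not HIST2H2BE (-0.02), and HIST1H2AM (0.19) but not HIST1H2BO (0.0012). In the other 8 pairs neither was. The dimmer member of each pair had a mean over the 11 arrays of 7.28 to 7.59, near the floor. A missing call there does not show that the gene did not respond. In the HIST2H2BE row, the control arrays were at 7.46, 7.51 and 7.45 and the mimic arrays at 7.40, 7.54 and 7.43, which overlap. In the promoter windows, the octamer was found in 10 of the 24 HIST genes that rose and in 16 of the 41 that were not called, the TATA box in 16 and 22, and the CCAAT box in 17 and 38. All 41 had a mean at or below 8, as did 18 of the 24. The motif counts therefore do not separate genes that responded from genes with too low a signal to be called. H4 windows rarely held the CCAAT box (3 of 13), and the octamer was found mainly in H2A (11 of 16) and H2B (14 of 18) windows. Within a type, the TATA box was found in 7 of 8 H2A windows of genes that rose and 4 of 8 of genes not called, and in 4 of 5 and 5 of 13 H2B windows. The octamer was found in 6 of 8 and 5 of 8 H2A windows and in 4 of 5 and 10 of 13 H2B windows in the same order.

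The MDA-MB-231 calls of HIST rows depended little on the scaling for the rows with the larger differences. On the deposited values without further normalization, 19 HIST rows were called higher, all of them among the 24, and HIST1H1A (-0.16) and HIST2H2BE (-0.10) were called lower. The same scaling moved the background more, to 7.26% higher and 17.9% lower over all rows, from 4511 rows higher and 3663 lower to 2275 and 5620. With cyclic loess 22 HIST rows were called higher and 1 lower, where 12.4% of all rows were higher and 11.9% lower. With centring the counts were 21 and 0, where 10.8% and 15.6% of all rows were called. Of the 24 calls, 18 were kept in every alternative fit that held the row. The others were HIST1H2AG, HIST1H2AM, HIST1H2BC, HIST1H2BJ, HIST1H3B and HIST2H3A. Except for HIST1H2BC, they were also lost when 1 array was left out, in each case without MDA-MB-231 control replicate 1 among others. Small differences at the floor such as that of HIST1H2AG, which was -0.0028 on the deposited values, have no settled direction.

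Rows of cytosolic ribosomal proteins were counted for comparison. Of 80 such rows with a mean above 8, 29 were called higher and 3 lower in MDA-MB-231 cells, with a median difference of 0.27. This is near the share of all rows above 8 on the higher side (39%) and below it on the lower side (26.2%). In SKOV3 cells 17 were higher and 2 lower, with a median of 0.22, where 23.4% and 15.3% of all rows above 8 were called. These counts depend on the scaling. On the deposited values they were 52 higher and 2 lower in MDA-MB-231 cells and 29 and 1 in SKOV3 cells. Of all rows above 8, 26.1% were higher and 33.3% lower there in MDA-MB-231 cells, and 15.1% and 19.3% in SKOV3 cells. With cyclic loess the counts were 19 and 7, and 7 and 3, where 33.8% and 28.4%, and 15.5% and 17.2%, of all rows above 8 were called. The median of the ribosomal protein rows on an array was 12.36 to 12.67 in MDA-MB-231 control arrays and 12.76 to 12.80 with the mimic, and 12.14 to 12.21 and 12.45 to 12.58 in SKOV3 cells. The mean of the 7 HIST rows above 8 was 8.83 to 9.03 and 10.03 to 10.23 in MDA-MB-231 cells, and 8.40 to 8.45 and 8.64 to 8.96 in SKOV3 cells. HIST1H2AC, HIST1H2BD and HIST2H2AC are among these rows only through the MDA-MB-231 mimic arrays. The higher mean on those arrays thus rests in part on the choice of rows. The part of the ribosomal shift, and of the 75th percentile, in the HIST result was not tested.

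Of the 15 variant rows in MDA-MB-231 cells, 9 were not called, and 5 of the 6 that were fell. The split of 1 higher and 5 lower was 2 and 6 on the deposited values and 2 and 5 after centring, where H2AFZ was also called higher. Over all rows, 7.26% were higher and 17.9% lower on the deposited values, and 10.8% and 15.6% after centring. H2AFY, which encodes macroH2A1, a variant of repressed chromatin, was at 10.74, 10.64 and 10.92 in control arrays and at 9.48, 9.90 and 9.93 with the mimic. It fell by 1.00 on the log2 scale (SE 0.13, adjusted p = 0.000752), with no overlap. H1F0, the linker histone H1.0 known from cells that have stopped dividing, went from 10.71, 10.25 and 10.26 to 9.48, 9.51 and 9.57. All mimic arrays were lower, and the difference was -0.89 ± 0.11 (SE, adjusted p = 0.000461). H3F3B, which with H3F3A encodes the replacement histone H3.3, went from 9.12, 8.98 and 8.92 to 7.95, 8.29 and 8.38, a difference of -0.80 ± 0.22 (SE, adjusted p = 0.0255). Its groups did not overlap, but the call was lost without MDA-MB-231 control replicate 1, 2 or 3, without miR-365a-3p replicate 1 or 2 and with a replicate block, with an adjusted p of up to 0.0916.

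H1FX, the linker histone H1.X, was at 8.41, 8.58 and 8.54 in MDA-MB-231 control arrays and at 7.83, 8.001 and 7.996 with the mimic. It differed by -0.57 ± 0.08 (SE, adjusted p = 0.000754) with no overlap. H2AFX, whose protein is phosphorylated at DNA breaks, went from 7.90, 8.17 and 7.86 to 7.58, 7.72 and 7.65, a difference of -0.33 ± 0.10 (SE, adjusted p = 0.0387). Its call was lost in 10 of 19 alternatives, among them those without MDA-MB-231 control replicate 1 or 2 or any MDA-MB-231 mimic array. H2AFJ, an H2A variant that accumulates in senescent cells, was the variant row that rose, from 8.50, 8.49 and 8.42 to 9.52, 9.11 and 9.06. The mimic arrays were all higher, by 0.76 ± 0.14 (SE, adjusted p = 0.00349).

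Of the other variant rows above 8, H2AFZ, which encodes H2A.Z, had control values of 13.02, 13.26 and 12.84 and mimic values of 13.16, 13.27 and 12.94 in MDA-MB-231 cells. These overlap, and the difference was 0.08 (95% interval -0.20 to 0.36). On the deposited values it was 0.41 and was called (adjusted p = 0.0341), while with cyclic loess it was -0.07, so its direction depends on the scaling. H3F3A was at 12.23, 12.76 and 12.25 in control arrays and at 12.35, 12.43 and 12.34 with the mimic, a difference of -0.04 (95% interval -0.33 to 0.24) that was 0.23 on the deposited values. H2AFY2, which encodes macroH2A2, lay at the floor on all MDA-MB-231 arrays, between 7.27 and 7.40, so no response could be measured there.

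**Figure D4:**
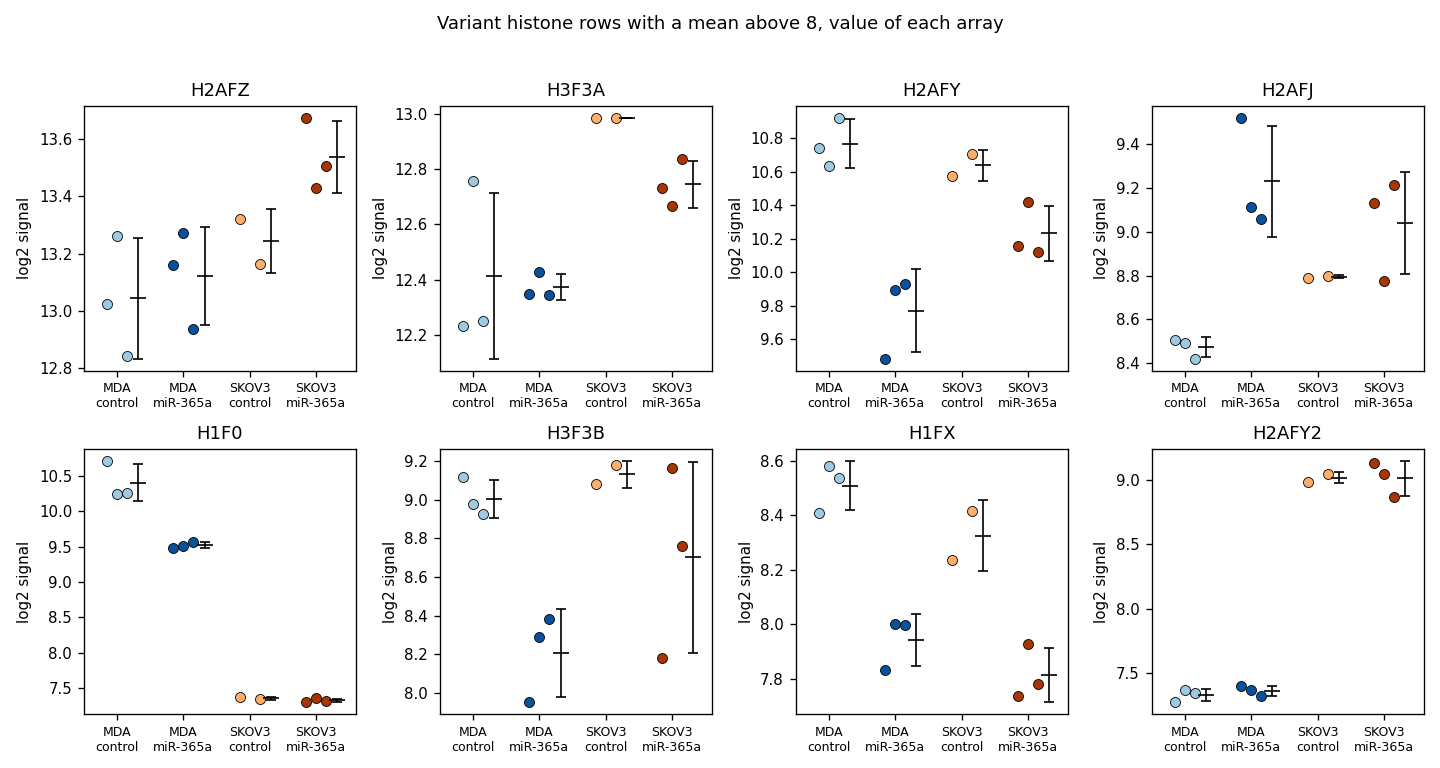
Quantile normalized log2 signal of the 8 variant rows with a mean above 8, 1 point per array, with the mean and SD of each group beside it; each panel has its own axis. In MDA-MB-231 cells H2AFY, H1F0, H3F3B and H1FX are lower and H2AFJ is higher on all mimic arrays, and H1F0 in SKOV3 and H2AFY2 in MDA-MB-231 cells lie at the floor.

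In SKOV3 cells few histone rows were called. Of the HIST rows, 2 were called higher and 1 lower, where 7.25% of all rows were called higher and 7.11% lower, and of the variant rows 0 were called higher and 2 lower. Above 8, 2 of 7 HIST rows were higher and 1 of 8 variant rows was lower, where 23.4% of all rows were higher and 15.3% lower. At or below 8, 0 of 63 HIST rows were higher and 1 was lower, and 1 of 7 variant rows was lower. Of all rows in that range, 2.73% were higher and 4.83% lower. At an unadjusted p under 0.05, 8 of 70 HIST and 4 of 15 variant rows differed, where 24.7% of all rows did. The scaling decides these few calls, since on the deposited values, where 3.83% of all rows were higher and 14% lower, 1 HIST row was higher and 3 were lower, and 1 variant row was higher and 4 were lower. After centring the counts were 1 and 2 for HIST rows and 2 and 2 for variant rows, where 5.52% of all rows were higher and 11.6% lower. With cyclic loess they were 1 and 1, and 0 and 2, where 6.30% and 8.92% of all rows were called. HIST1H1C was at 8.69 and 8.46 in SKOV3 control arrays and at 9.19, 8.95 and 9.18 with the mimic, with no overlap and a difference of 0.53 ± 0.12 (SE, adjusted p = 0.0189). This call was lost without SKOV3 control replicate 2 (adjusted p = 0.183), without SKOV3 miR-365a-3p replicate 1 (0.0544) or 3 (0.0542) and on the deposited values (0.208). HIST1H2AC was at 7.74 and 7.75 in control arrays and at 8.12, 7.91 and 7.90 with the mimic, a difference of 0.23 ± 0.06 (SE, adjusted p = 0.044). Its groups did not overlap, but the call was lost in 13 of 20 alternatives, among them those without either SKOV3 control array, without MDA-MB-231 control replicate 3 or any MDA-MB-231 mimic array, and the difference was -0.03 on the deposited values. HIST1H1C and HIST1H2AC were thus the HIST rows called higher in both lines, as 5.76% of all rows were. HIST2H2BE, an H2B gene, fell from 7.53 and 7.58 to 7.42, 7.42 and 7.36, a difference of -0.15 ± 0.04 (SE, adjusted p = 0.0425). This call was lost in 11 of 19 alternatives, among them those that left out any 1 array other than MDA-MB-231 miR-365a-3p replicate 1 or 2.

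The remaining HIST rows above 8 were not called in SKOV3 cells. HIST1H2BK was at 8.84 and 8.68 and, with the mimic, at 8.93, 9.02 and 8.99, which do not overlap (0.22, adjusted p = 0.174). HIST1H2BD was at 7.57 and 7.55 and at 8.02, 7.76 and 7.77, also apart (0.29, adjusted p = 0.0798). HIST2H2AC was at 7.55 and 7.63 and at 8.03, 7.69 and 7.88 (0.27, adjusted p = 0.32). For 6 of the 7 rows above 8 all SKOV3 mimic arrays exceeded both controls, where 44.6% of all rows in that range did. The exception was HIST2H2AA4, with 7.85 and 7.86 in control arrays and 8.17, 7.86 and 8.04 with the mimic (0.17, adjusted p = 0.435). HIST1H4C was at 10.93 and 10.85 in control arrays and at 12.24, 11.31 and 11.96 with the mimic, a difference of 0.94 (95% interval 0.0032 to 1.88, adjusted p = 0.2), which was called with array weights (adjusted p = 0.0332) or among rows above 8 alone (0.0478). On the deposited values HIST1H2BK and HIST2H2AA4 had differences of -0.01 and -0.11, so their direction in SKOV3 cells depends on the scaling.

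Among the variants, H1FX was at 8.23 and 8.42 in SKOV3 control arrays and at 7.74, 7.93 and 7.78 with the mimic. It fell without overlap, by a difference of -0.51 ± 0.08 (SE, adjusted p = 0.00447), and without SKOV3 control replicate 2 the adjusted p was 0.0569. H2AFX went from 8.52 and 8.35 to 7.80, 8.10 and 7.97, a difference of -0.48 ± 0.11 (SE, adjusted p = 0.0219) without overlap. Its call was lost without either SKOV3 control array, without SKOV3 miR-365a-3p replicate 1 and when the cell line was fitted alone. H1FX and H2AFX were thus called lower in both cell lines, as 5.39% of all rows were. H2AFY was at 10.57 and 10.71 in control arrays and at 10.16, 10.42 and 10.12 with the mimic, apart but not called (-0.41, adjusted p = 0.119), and without MDA-MB-231 miR-365a-3p replicate 1 it was called (adjusted p = 0.0415). H3F3B had control values of 9.08 and 9.18 and mimic values of 8.18, 9.16 and 8.76, which overlap (-0.43, adjusted p = 0.358).

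H2AFJ had SKOV3 control values of 8.79 and 8.80 and mimic values of 9.13, 8.78 and 9.21, and 1 mimic array lay below both controls (0.25, adjusted p = 0.419). H2AFZ went from 13.32 and 13.16 to 13.67, 13.43 and 13.51 (0.29, adjusted p = 0.233), and on the deposited values its difference of 0.48 was called (adjusted p = 0.038), as it was after centring. H3F3A had the value 12.99 on both control arrays, where it held the same rank, and 12.73, 12.67 and 12.84 with the mimic (-0.24, adjusted p = 0.369). Without MDA-MB-231 control replicate 2 this difference was called (adjusted p = 0.0162), while on centred values it was 0.03. H2AFY2 was at 8.99 and 9.05 and at 9.13, 9.05 and 8.87 (-0.0046). H1F0 lay at the floor in SKOV3 cells, between 7.30 and 7.37 on all 5 arrays.

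The exact permutation of the treatment within cell lines, on the mean of the differences of both lines, gave p = 0.005 for HIST1H1C, HIST1H2AC, HIST1H2BD, HIST1H2BK and H1FX, two-sided and unadjusted over the 15 rows tested. No smaller p can come from 200 arrangements. It gave 0.01 for HIST2H2AC and H2AFY, 0.015 for HIST2H2AA4, H1F0 and H3F3B, 0.02 for H2AFJ and 0.04 for HIST1H4C in the same exact test. The exact p was 0.095 for H2AFZ, 0.17 for H3F3A and 0.815 for H2AFY2. The 15 rows were those with a mean above 8, a limit that takes in the mimic arrays. HIST1H2AC, HIST1H2BD and HIST2H2AC passed it only through the MDA-MB-231 mimic arrays, so their exact p-values rest in part on the rise itself. On the deposited values the exact p was above 0.05 for HIST1H2AC (0.08), HIST2H2AA4 (0.08), HIST1H2BK (0.055) and H2AFJ (0.095), and 0.005 for H2AFZ. After centring it was 0.05 for HIST1H2BK, 0.07 for HIST2H2AA4 and 0.005 for H2AFZ in the exact test, and with cyclic loess 0.055 for HIST1H4C and 0.04 for H3F3A.

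Some HIST rows rose more in MDA-MB-231 than in SKOV3 cells. The test of the difference between the responses called 7 HIST rows with a larger rise in MDA-MB-231 cells and 0 with a smaller one, where 1.24% and 1.3% of all rows were called. Of the variant rows, 0 were called in the first direction and 1, H1F0, in the second. HIST1H2AC differed most between the lines, by 1.58 ± 0.10 (SE, adjusted p = 6.81e-05), followed by HIST1H2BD with 1.37 (adjusted p = 0.00118) and HIST2H2AA4 with 1.10 (adjusted p = 0.0059). The others were HIST2H2AA3 (0.94), HIST1H2AD (0.90), HIST2H4A (0.52) and HIST1H3C (0.34). HIST2H4B, which a probe may not tell apart from HIST2H4A, was not called here. For HIST1H1C the difference between the lines was 0.58 (adjusted p = 0.132) and for HIST1H2BK 0.51 (adjusted p = 0.0801). For H1F0 it was -0.86 (adjusted p = 0.0306), with a floor in SKOV3 cells that left no room for a fall, and this call was lost without any 1 of the MDA-MB-231 mimic arrays, either SKOV3 control array or SKOV3 miR-365a-3p replicate 2 or 3. Only HIST1H2AC and HIST1H2BD kept this call in every alternative, and HIST2H2AA4 and HIST2H4A lost it with a replicate block alone. Without SKOV3 control replicate 1 or 2, without SKOV3 miR-365a-3p replicate 2 or 3 or without MDA-MB-231 control replicate 3, 4 HIST rows were called.

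**Figure D5:**
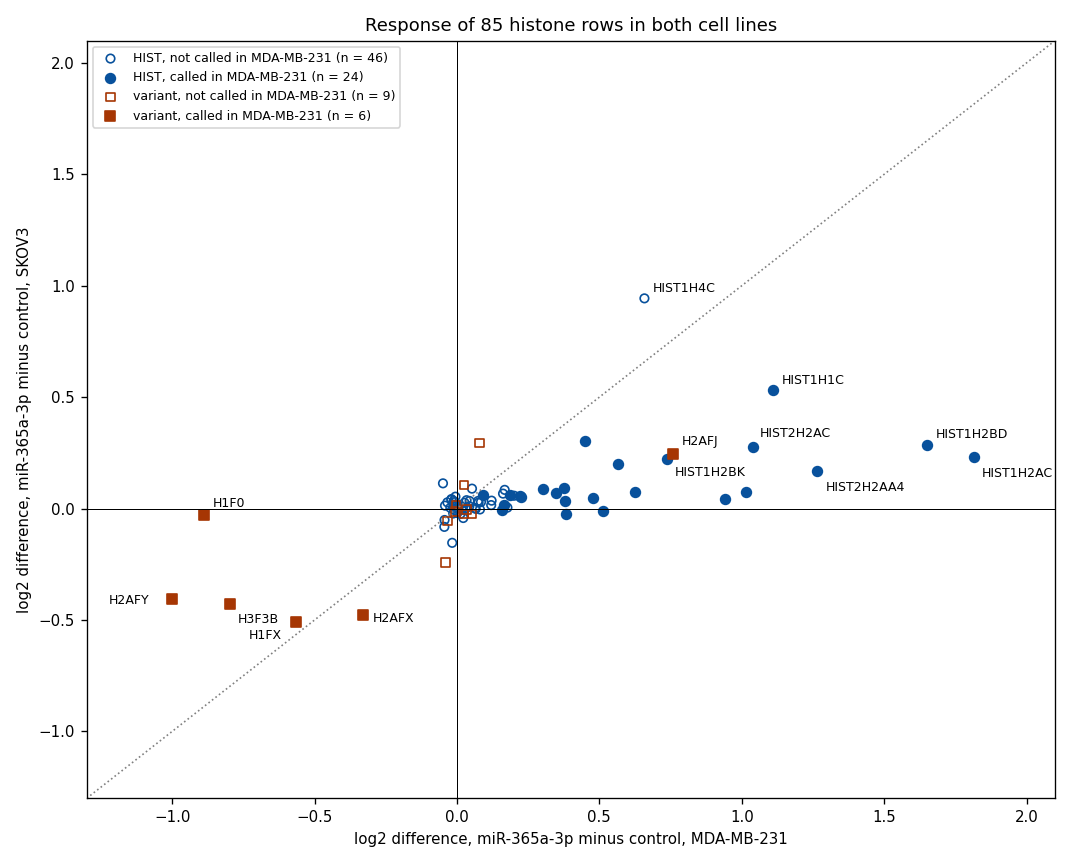
Log2 difference, miR-365a-3p minus control, of the 85 histone rows in MDA-MB-231 cells (horizontal) and SKOV3 cells (vertical), with HIST rows as circles and variant rows as squares, filled where called in MDA-MB-231 cells; the dotted line marks equal differences. Filled circles lie to the right of 0 and below the dotted line, and 5 of the 6 filled squares lie to the left. Filled circles were chosen by their MDA-MB-231 difference, which favours a place below the line.

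The control arrays were compared between the cell lines without the mimic. Here 1 of 70 HIST rows was called higher in MDA-MB-231 cells and 0 lower, and of 15 variant rows 1 was higher and 3 were lower, where 7.76% of all rows were higher and 8.34% lower. Above 8, where 20% of all rows were higher and 19.2% lower, 1 of 7 HIST rows was higher, and 1 of 8 variant rows was higher and 2 were lower. None of the 63 HIST rows at or below 8 was called. H1F0 was higher in MDA-MB-231 cells by 3.06 ± 0.12 (SE, adjusted p = 8.86e-07), and since SKOV3 lay at the floor this understates the difference. H2AFY2 was lower by 1.69 (difference -1.69 ± 0.07, SE, adjusted p = 1.05e-06), here with MDA-MB-231 at the floor. HIST1H2BK was the HIST row called, with a difference of 1.33 ± 0.09 (SE, adjusted p = 2.29e-05). H3F3A (-0.58, adjusted p = 0.0224) and H2AFX (-0.45, adjusted p = 0.0233) were lower in MDA-MB-231 cells, and both calls were lost without MDA-MB-231 control replicate 1 or 3 or either SKOV3 control array. The count of HIST rows was 2 higher and 5 lower on the deposited values, 2 and 4 after centring and 3 and 2 with cyclic loess, so which HIST rows differ between the lines depends on the scaling.

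Genes that make and process histone mRNA moved in both directions. Of 32 such genes, 6 were called higher and 11 lower in MDA-MB-231 cells and 5 higher and 5 lower in SKOV3 cells, and on the deposited values 5 and 15, and 5 and 9. Above 8, where 39% of all rows were called higher and 26.2% lower in MDA-MB-231 cells and 23.4% and 15.3% in SKOV3 cells, the counts were 6 and 5 of 20 genes, and 5 and 1. SLBP, which binds the stem-loop, had a mean of 10.48 in MDA-MB-231 control arrays and 10.34 with the mimic (-0.14, adjusted p = 0.371), and differed by 0.08 in SKOV3 cells (adjusted p = 0.775). NPAT, the coactivator of histone gene transcription, differed by -0.24 (adjusted p = 0.0574) and -0.07, and on the deposited values it was called lower in MDA-MB-231 cells (-0.34, adjusted p = 0.00833). Of this list 8 genes were called in both lines with the same sign. The 4 with the largest mean difference were LARP7, which binds 7SK RNA, with 1.37 and 0.99 in MDA-MB-231 and SKOV3 cells, WDR33, a subunit of the polyadenylation factor CPSF, with 1.03 and 0.83, CPSF1, a further subunit, with -1.31 and -1.13, and UPF1, which acts in the decay of histone mRNA, with -0.57 and -0.50. The other 4 were SNRPB, which was higher (0.28 and 0.62), and SYMPK (-0.38 and -0.34), CRAMP1L (-0.27 and -0.38) and POU2F1, which were lower. CSTF2 and FIP1L1 were called higher in SKOV3 cells and not in MDA-MB-231 cells, and FIP1L1 was not called on the deposited values (adjusted p = 0.682). POU2F1 encodes a factor known to bind the octamer, and it differed by -0.25 (adjusted p = 0.00466) and -0.33 (adjusted p = 0.0042). No gene of this list was called for a difference between the lines.

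Of 35 histone chaperones and variant loaders, 5 were called higher and 13 lower in MDA-MB-231 cells and 3 higher and 6 lower in SKOV3 cells, and on the deposited values 2 and 19, and 3 and 15. Above 8, with the shares over all rows given for the processing genes, the counts were 5 and 7 of 22 genes in MDA-MB-231 cells and 3 and 4 in SKOV3 cells. The rows called higher in MDA-MB-231 cells were ACTR6 (1.17) and YEATS4 (0.85), subunits of complexes that handle H2A.Z, VPS72, ZNHIT1 and CENPA. CENPA, the H3 variant of centromeres, which the symbol rule does not take in, rose by 0.55 (adjusted p = 0.0401) and differed by 0.30 in SKOV3 cells (adjusted p = 0.429). On the deposited values the MDA-MB-231 difference of CENPA was 0.24 and was not called (adjusted p = 0.403), nor were VPS72, ZNHIT1 and YEATS4 there (adjusted p = 0.191, 0.215 and 0.0703). In SKOV3 cells ACTR6 (0.93), YEATS4 (1.12) and DNAJC9 were higher. NAP1L1, a chaperone of H2A and H2B, fell in both lines (-1.22 and -0.72), as did CDAN1 (-0.99 and -1.21). ASF1B, which carries H3 and H4 to replicating DNA, differed by -0.88 in MDA-MB-231 and -0.17 in SKOV3 cells and was the row called between the lines (-0.70, adjusted p = 0.0034).

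Since replication-dependent histone genes are expressed in S phase, 45 S phase genes were counted beside them; SLBP, CCNE1, CCNE2 and MCM2 stand in more than 1 list. In MDA-MB-231 cells, 7 of these genes were called higher and 22 lower, with a median difference of -0.28, and on the deposited values 5 and 25. In SKOV3 cells 9 were higher and 3 lower, with a median of 0.07, and on the deposited values 6 and 7. Above 8, where the shares over all rows were again 39% and 26.2%, and 23.4% and 15.3%, the counts were 6 higher and 14 lower of 32 genes in MDA-MB-231 cells and 9 and 0 in SKOV3 cells. The 3 that were lower in SKOV3 cells were E2F2, POLE and MKI67. PRIM1 and PRIM2, the subunits of DNA primase, rose in both lines, by 1.07 and 0.97 and by 0.68 and 0.84 in MDA-MB-231 and SKOV3 cells, as did RPA3 (0.73 and 0.83) and POLE2 (0.50 and 0.85). The call of PRIM2 in MDA-MB-231 cells was lost on the deposited values (adjusted p = 0.195). TYMS, thymidylate synthase, and DTL, which directs the destruction of CDT1, were called for a difference between the lines, with -0.88 (adjusted p = 0.0458) and -1.10 (adjusted p = 0.0059). The TYMS call was lost on the deposited values (adjusted p = 0.0755). DTL fell by 1.15 in MDA-MB-231 cells (difference -1.15) and differed by -0.04 in SKOV3 cells.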

How the data were processed

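RNA from MDA-MB-231 and SKOV3 cells was measured on 11 Illumina HumanHT-12 v4 BeadChips, with groups taken from the labels' cell line and transfected miRNA. The authors labelled cRNA with biotin, quantile normalized the data with lumi and deposited log2 values, 1 for each gene symbol on each array; whether the scale is log2 or the variance-stabilizing one of lumi, how probes of a gene were combined and whether background was subtracted are not given in the sources used here. Detection values were not used here, so expressed rows were not told apart from background rows near the floor. The number of arrays limits the precision. The deposited log2 values were quantile normalized again with limma 3.58.1 in R 4.3.3 and a model with 4 group means was fitted to all 31325 rows (lmFit, eBayes), which was tested on simulated data. Adjustment followed Benjamini and Hochberg, with a threshold of 0.05. The exact permutation used all 200 arrangements of the treatment within cell lines. Tables were handled in Python 3.11.15 with pandas 2.3.3, NumPy 2.4.6 and SciPy 1.17.1, and plots drawn with matplotlib 3.10.9.

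The members, gene lists and tests were chosen with earlier results of these data known. Named were all histone rows with a mean above 8, all called for the treatment, and of the other lists SLBP, NPAT, CENPA, up to 4 genes with the largest mean difference among those called in both lines with 1 sign, and the genes behind counts of 5 or fewer; POU2F1 and DTL are described further after their values were seen. RefSeq tables of GRCh38.p14 gave current symbols and promoter windows, of which 65 HIST and 14 variant genes had one; the first window of a gene was used, and its 250 bases before the start were searched. A description by protein length was not made, since protein sequences were not used here. Alternatives were the deposited values, cyclic loess, centring on the median, each line alone, a replicate block, filters on dim rows, an intensity trend, array weights, stricter thresholds and each array left out in turn.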

Additional observations from a re-analysis of the deposited data

Results flagged for a closer look

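The response to miR-365a-3p differed between the cell lines for 8 histone rows by the test of the difference itself (limma, Benjamini-Hochberg over all rows), and this is what marks them for a closer look. For 7 HIST rows the log2 difference was larger in MDA-MB-231 than in SKOV3 cells. The gap was 1.58 for HIST1H2AC (adjusted p = 6.81e-05), 1.37 for HIST1H2BD (0.00118), 1.10 for HIST2H2AA4 (0.0059), 0.94 for HIST2H2AA3 (0.0224), 0.90 for HIST1H2AD (0.0292), 0.52 for HIST2H4A (0.00658) and 0.34 for HIST1H3C (0.0451). HIST2H2AA3 and HIST2H2AA4 encode the same protein and may share probe signal. The same holds for HIST2H4A and HIST2H4B, and HIST2H4B was not called for such a gap. For H1F0 the gap was -0.86 (0.0306), and its SKOV3 values lay at the floor. Groups of 2 or 3 arrays were too small to look for a single array that stands apart within a group.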

How the results depend on the processing

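In MDA-MB-231 cells more HIST rows were called higher than lower under every scaling. The 24 calls became 11 with a difference of at least 0.5 and 6 among rows above 8, and 20 to 28 with 1 array left out; the 6 calls of variant rows became 4 to 6. In SKOV3 cells the 3 HIST calls became 0 at an adjusted p under 0.01 or with the line fitted alone, 1 with at least 0.5, 7 with array weights, 5 among rows above the median and 0 to 3 with 1 array left out (0 without SKOV3 control replicate 2, 1 without SKOV3 control replicate 1 or miR-365a-3p replicate 1 or without MDA-MB-231 control or miR-365a-3p replicate 3). The 2 variant calls there became 1 at 0.01, with at least 0.5, with the line alone or above 8, 5 with array weights or on deposited values, 4 after centring and 0 to 3 with 1 array left out (0 and 1 without SKOV3 control replicates 2 and 1). For the difference between lines, the 7 HIST calls became 4 at 0.01, 13 with array weights, 11 with an intensity trend, 3 above 8 and 4 to 9 with 1 array left out, and the 1 variant call 0 at 0.01 and 0 to 2 with 1 array left out (2 without MDA-MB-231 control replicate 2). Between controls, the 1 HIST call became 6 with array weights or centring, 5 with loess, 7 on deposited values, 2 with the trend, 3 above the median and 1 to 3 with 1 array left out (3 without SKOV3 miR-365a-3p replicate 1, 2 without its replicate 3 or MDA-MB-231 miR-365a-3p replicate 1); the 4 variant calls became 2 at 0.01 and 2 to 4 with 1 array left out. Median differences moved to 0.024 in MDA-MB-231 and -0.0088 in SKOV3 cells for HIST rows on deposited values. Above 8, a limit that takes in the mimic arrays, they were 1.11 and 0.27, and -0.30 for variant rows in MDA-MB-231 cells. The cause of these changes was not tested.

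Deviations of same-numbered control and mimic arrays were weakly correlated (over 6853 rows, -0.12, 0.04 and 0.23 in MDA-MB-231 and 0.04 and -0.07 in SKOV3 cells). With 2 or 3 arrays a group, these values cannot show whether the numbers pair the samples. With the replicate number within each line as a block, 2 HIST and 0 variant rows were called for the difference between lines and 1 HIST row in SKOV3 cells; the contrast between controls could not be fitted with it, since blocks lie within lines. Where a SKOV3 control array is left out, the lone array is assumed to vary like the other groups. Signs changed mostly for rows that were not called; HIST1H2AC in SKOV3 and HIST1H2AG in MDA-MB-231 cells were called, with small differences at a low signal. H2AFY2 in SKOV3 cells was 0.069 with the block and -0.062 to 0.069 with 1 array left out, and above 0 without SKOV3 control replicate 2 (0.027) or miR-365a-3p replicate 3. In MDA-MB-231 cells H2AFZ was -0.071 with loess and -0.020 (without control replicate 3) to 0.19 with 1 array left out, H3F3A was 0.23 on deposited values, 0.26 after centring and -0.13 to 0.13 (without control replicate 2) with 1 array left out, and HIST1H2AG was -0.0028 on deposited values. In SKOV3 cells H3F3A was 0.033 after centring, HIST1H2AC -0.030 and HIST1H2BK -0.011 on deposited values, and HIST2H2AA4 -0.11 on deposited values and -0.075 after centring. The mean of both lines was -0.0099, -0.086 and -0.051 for H2AFY2 with loess, deposited and centred values, -0.0053 for H2AFZ with loess, and 0.11 and 0.15 for H3F3A on deposited and centred values.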
